A study of Mus musculus with 12 samples.

Results

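The genes described here are 10 airway club and secretory genes of the mouse lung: Scgb1a1, Scgb3a1, Scgb3a2, Bpifa1, Bpifb1, Muc5b, Cyp2f2, Pigr, Reg3g and Ltf. They were chosen by symbol, and all 10 were found among the 24421 genes of the deposited count table. All 10 passed the filter on low counts and were among the 15923 genes tested. RNA came from whole lungs of Tbx4fl/fl mice (Control) and of Tbx4 conditional knockout mice (CKO), at postnatal day 14 (P14) and at postnatal day 36 (P36). Each of the 4 groups had 3 libraries, and Tbx4 is a T-box gene active in lung mesenchyme. Of the Cre driver, the deleted exons, the strain and the animals behind each library, the labels say nothing, so p-values measure only the spread between these libraries. Control P36 replicates 1 and 3 carry the same library number, as do CKO P14 replicates 2 and 3.

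Total counts ran from 17806206 to 28481876 per library. Tbx4 itself measured 110 to 157 CPM (counts scaled to a common library total) in the Control and 111 to 129 CPM in the CKO libraries at P14. At P36, Tbx4 measured 62.7 to 79.8 CPM in Control and 67.2 to 87.4 CPM in CKO, and its log2 fold change was -0.15 (adjusted p = 0.626, edgeR) at P14 and 0.20 (adjusted p = 0.511) at P36. Whole-gene counts of Tbx4 were thus not lower in the libraries labelled CKO by this test, and they can include reads from outside a deleted exon, so the genotype labels could not be checked. Xist counts were higher than Y-linked counts in all 6 P14 libraries and in Control P36 replicates 1 and 3, and lower in Control P36 replicate 2 and all 3 CKO P36 libraries, so within CKO age and sex cannot be told apart, and at P36 sex separates the genotypes except for Control replicate 2.

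Club cells are secretory epithelial cells of the conducting airways. They release secretoglobins, metabolise inhaled chemicals through cytochrome P450 enzymes, and act as progenitors of ciliated and goblet cells after injury. Larger airways and submucosal glands add mucins, proteins of the BPI fold family and antimicrobial proteins to the surface liquid, and the balance between these products shifts along the airway from trachea to bronchioles. Whole-lung RNA mixes airway with alveolar and other tissue, and in such bulk samples fewer cells of a type and less RNA per cell cannot be told apart.

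The members lie on 8 chromosomes of mm10. Bpifa1 (chr2:154142880-154149217, plus strand) and Bpifb1 (chr2:154190818-154220343, plus strand) are neighbours in the BPI fold cluster, 41601 bases apart. Scgb3a1 lies at chr11:49663595-49665118 (plus), Reg3g at chr6:78466268-78468874 (minus), Scgb1a1 at chr19:9083642-9087956 (minus), Muc5b at chr7:141839072-141873085 (plus) and Cyp2f2 at chr7:27119955-27133660 (plus). Pigr lies at chr1:130826684-130852249 (plus) and Ltf at chr9:111019292-111042766 (plus). Exons of Cyp2f2 overlap the antisense gene Gm15883, and since no source used here says whether strand was used in counting, reads from Gm15883 may stand among its counts.

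The 250 bases before the start of Scgb3a1, Bpifa1, Bpifb1 and Reg3g are shown because these genes had the 4 widest spreads within groups, given below as coefficients of variation. The sequences are from RefSeq (GRCm38.p6), read 5′ to 3′ on each gene's strand, at chr11:49663345-49663594, chr2:154142630-154142879, chr2:154190568-154190817 and chr6:78468875-78469124. Capitals mark every match, on either strand, to 1 of 6 motifs: the TATA box TATAAA, the forkhead (FOX) motif TGTTTNC, the NKX2 motif TNAAGTG, the C/EBP motif TTGNNCAA, the STAT motif TTCNNNGAA and the NF-kB motif, searched as GGG, 5 bases of any kind and CC.
Scgb3a1: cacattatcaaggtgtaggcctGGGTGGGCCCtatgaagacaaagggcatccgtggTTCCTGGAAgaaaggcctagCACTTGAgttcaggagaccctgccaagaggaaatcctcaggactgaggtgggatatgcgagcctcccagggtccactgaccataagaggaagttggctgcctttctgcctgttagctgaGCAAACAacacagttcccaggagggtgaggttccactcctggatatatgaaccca
Bpifa1: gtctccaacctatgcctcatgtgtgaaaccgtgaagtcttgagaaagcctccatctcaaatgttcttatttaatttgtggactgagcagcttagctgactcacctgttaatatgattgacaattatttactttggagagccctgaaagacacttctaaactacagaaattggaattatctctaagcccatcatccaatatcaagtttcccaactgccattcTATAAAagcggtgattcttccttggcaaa
Bpifb1: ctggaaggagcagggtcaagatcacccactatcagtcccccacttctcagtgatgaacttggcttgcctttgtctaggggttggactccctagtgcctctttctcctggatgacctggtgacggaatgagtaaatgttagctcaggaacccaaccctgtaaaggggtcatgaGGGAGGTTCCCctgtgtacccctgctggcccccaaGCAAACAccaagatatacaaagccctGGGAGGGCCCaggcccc
Reg3g: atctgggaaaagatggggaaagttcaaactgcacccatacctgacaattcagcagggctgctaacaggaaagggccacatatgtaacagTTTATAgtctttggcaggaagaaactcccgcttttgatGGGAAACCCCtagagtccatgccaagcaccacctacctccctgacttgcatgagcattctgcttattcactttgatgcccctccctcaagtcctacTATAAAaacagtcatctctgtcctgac
Position -1 is the base just before the start. The FOX motif stood on the opposite strand as GCAAACA at -55 in Scgb3a1 and at -43 in Bpifb1, and TATAAA stood at -29 in Bpifa1 and at -27 in Reg3g. Windows were in the table for 7 members, and not for Scgb1a1, Scgb3a2 or Muc5b. Among the 7, the FOX motif was present in 3, the TATA box in 2, the NKX2 motif in 2, the STAT motif in 2, the C/EBP motif in 1 and the NF-kB motif in 6. The table holds a second, downstream start for Bpifb1, and the STAT match counted for that gene lies before this second start, not in the window shown. Of 32851 windows of the same length over all genes, 17.8% held the FOX motif, 12.4% the TATA box, 10.1% the NKX2 motif, 7.02% the STAT motif, 5.65% the C/EBP motif and 45.8% the NF-kB motif. A match describes letters only.

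Among the secretoglobins, Scgb1a1 encodes the small secreted protein that defines club cells. At P14, Scgb1a1 measured 9745, 13201 and 9263 CPM in Control replicates 1 to 3 and 8092, 9925 and 10107 CPM in CKO replicates 1 to 3. At P36, Scgb1a1 measured 30462, 24038 and 30876 CPM in Control and 15722, 31244 and 30411 CPM in CKO. Every P36 library was above every P14 library, and the lowest P36 value came from CKO replicate 1. CKO P36 replicate 3, the library that stood apart for most other members, ranked 4 of 12 for Scgb1a1.

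Scgb3a2 encodes a second secretoglobin of bronchiolar secretory cells. At P14, Scgb3a2 measured 348, 1237 and 714 CPM in Control and 381, 445 and 467 CPM in CKO. At P36, Scgb3a2 measured 685, 493 and 752 CPM in Control and 287, 544 and 1243 CPM in CKO. The 2 highest libraries, Control P14 replicate 2 and CKO P36 replicate 3, came from different groups, and all groups overlapped.

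Scgb3a1, the secretoglobin of larger airways, varied far more. At P14, Scgb3a1 measured 0.474, 237 and 154 CPM in Control and 6.25, 11.5 and 10.4 CPM in CKO. At P36, Scgb3a1 measured 145, 5.57 and 147 CPM in Control and 1.11, 6.67 and 887 CPM in CKO. Between the lowest library (Control P14 replicate 1, 10 counts) and the highest (CKO P36 replicate 3, 21208 counts) the ratio was 1874 (exact 95% interval 1018 to 3907, counting error only). The CKO P14 libraries lay close together, and each of the other groups held both low and high libraries.

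Cyp2f2 encodes the cytochrome P450 of club cells that bioactivates naphthalene. At P14, Cyp2f2 measured 931, 1770 and 1061 CPM in Control and 724, 1010 and 962 CPM in CKO. At P36, Cyp2f2 measured 2975, 2160 and 2964 CPM in Control and 1476, 2945 and 3956 CPM in CKO. Within each genotype the P36 libraries lay above the P14 libraries.

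Bpifa1 and Bpifb1 encode secreted proteins of the BPI fold family, with surface-active and antibacterial roles in the upper airways. At P14, Bpifa1 measured 0.0474, 6.16 and 5.05 CPM in Control and 0.113, 0.0478 and 0.104 CPM in CKO. At P36, Bpifa1 measured 6.43, 0.128 and 6.0 CPM in Control and 0, 0.0525 and 198 CPM in CKO. The value of 0 was CKO replicate 1, where a count of 0 allows up to 0.139 CPM (3 counts), and CKO replicate 3 was at least 1427-fold higher than that limit. Of the 12 libraries, 7 held 3 counts of Bpifa1 or fewer.

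At P14, Bpifb1 measured 0.521, 94.3 and 66.0 CPM in Control and 1.80, 2.87 and 3.34 CPM in CKO. At P36, Bpifb1 measured 21.8, 0.850 and 19.0 CPM in Control and 0.0926, 0.893 and 284 CPM in CKO. High libraries for Bpifb1 were those high for Bpifa1: Control P14 replicates 2 and 3, Control P36 replicates 1 and 3, and CKO P36 replicate 3.

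Muc5b encodes a gel-forming mucin that is needed for mucociliary clearance. At P14, Muc5b measured 3.84, 828 and 622 CPM in Control and 53.5, 70.1 and 70.5 CPM in CKO. At P36, Muc5b measured 661, 55.7 and 683 CPM in Control and 10.4, 104 and 2149 CPM in CKO. The same 5 libraries were the highest 5, and the other 7 stayed at 104 CPM or below.

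Pigr encodes the polymeric immunoglobulin receptor, which carries dimeric IgA across the epithelium. At P14, Pigr measured 2.79, 12.3 and 9.89 CPM in Control and 4.22, 3.68 and 3.81 CPM in CKO. At P36, Pigr measured 53.5, 28.3 and 49.3 CPM in Control and 17.8, 48.1 and 126 CPM in CKO. All 6 P36 libraries were above all 6 P14 libraries.

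Reg3g encodes an antibacterial lectin and Ltf the iron-binding protein lactoferrin. At P14, Reg3g measured 0.0474, 35.0 and 18.4 CPM in Control and 0.394, 1.53 and 1.56 CPM in CKO. At P36, Reg3g measured 3.07, 0.085 and 4.27 CPM in Control and 0.139, 0.420 and 109 CPM in CKO. After CKO P36 replicate 3, the highest Reg3g values were those of Control P14 replicates 2 and 3.

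At P14, Ltf measured 3.13, 5.87 and 4.89 CPM in Control and 3.26, 3.92 and 3.91 CPM in CKO. At P36, Ltf measured 12.6, 3.91 and 11.2 CPM in Control and 1.95, 3.68 and 108 CPM in CKO. Without CKO P36 replicate 3, Ltf stayed between 1.95 and 12.6 CPM. Ltf is also a granule protein of neutrophils. Summed over 14 neutrophil markers, 10 of them tested, the level was 51.6 CPM in CKO P36 replicate 3. All libraries ran from 28.2 to 62.8 CPM.

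**Figure D1:**
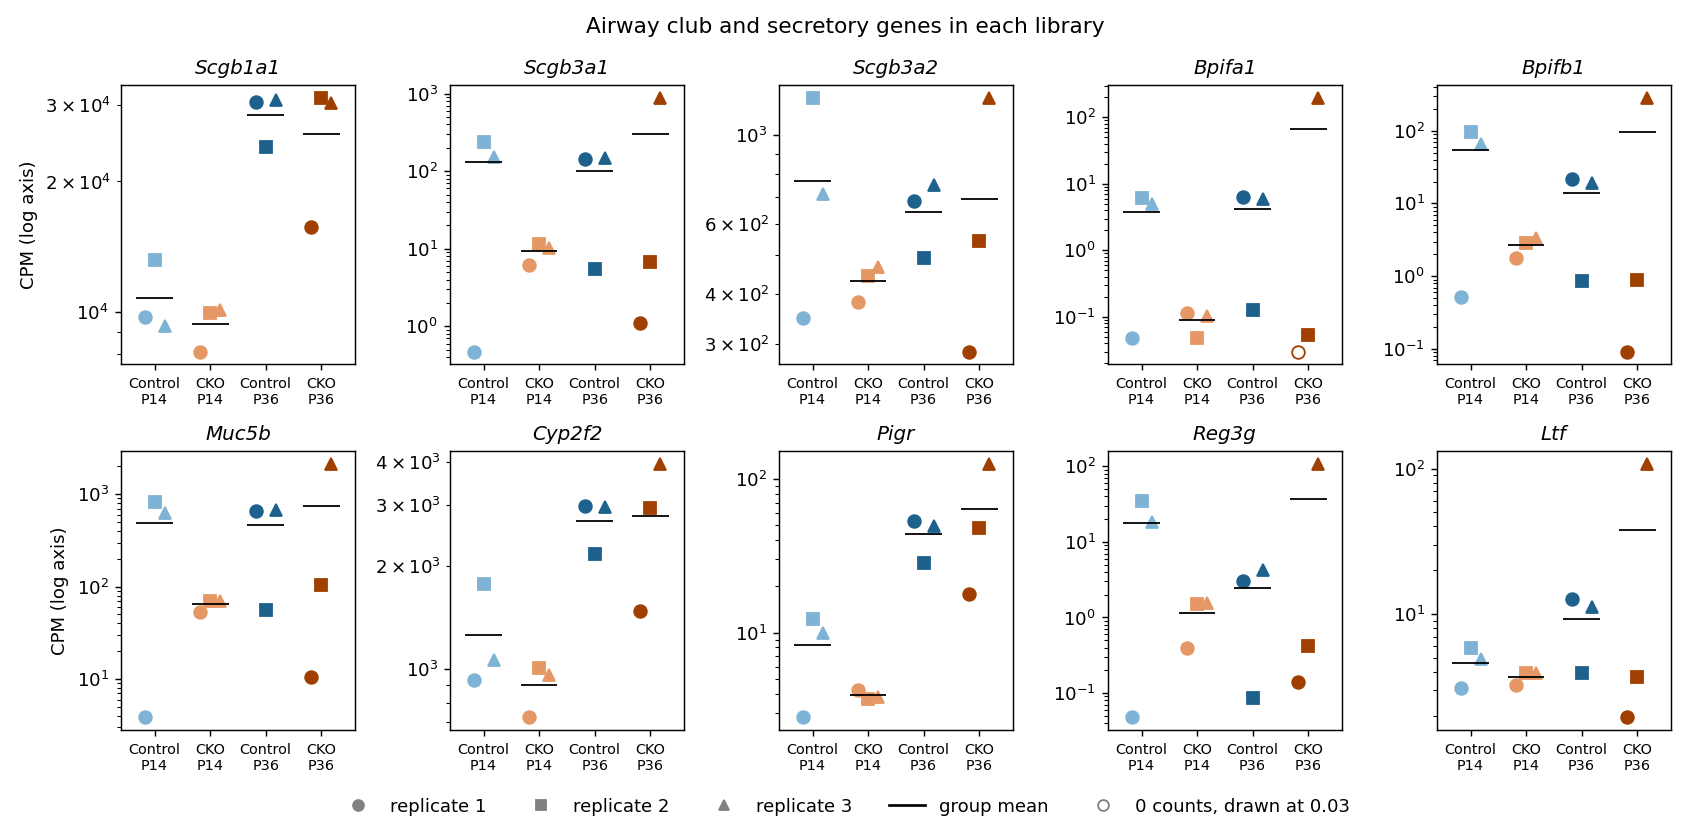
CPM on a log axis for each of the 10 genes in the 12 libraries, 3 per group, with replicate numbers as symbols and group means as lines; the open circle for Bpifa1 is a count of 0. CKO P36 replicate 3 is the highest library for 9 of 10 genes, while Scgb1a1, Cyp2f2 and Pigr separate by age within each genotype.

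Levels can be compared between genes only per length. As RPKM, which divides CPM by the listed exon length in kilobases, Scgb1a1 led in all 4 groups. Its mean level was 22941 ± 4589 RPKM (SD, n = 3) in Control P14, 20031 ± 2382 in CKO P14, 60810 ± 8193 in Control P36 and 55111 ± 18657 in CKO P36. Scgb3a2 was next at P14, at 1269 ± 740 RPKM in Control and 713 ± 73.9 RPKM in CKO, ahead of Cyp2f2 at 689 ± 248 and 494 ± 84.1 RPKM. In Control P14, the mean ± SD ranges of these 2 neighbours overlapped. Within each library Scgb3a2 was the higher, at 576, 2049 and 1182 RPKM in replicates 1 to 3 beside 512, 972 and 583 RPKM for Cyp2f2. At P36 the order of the means turned, with Cyp2f2 at 1483 ± 257 RPKM in Control and 1534 ± 685 in CKO, ahead of Scgb3a2 at 1065 ± 222 and 1145 ± 819 RPKM. Scgb3a1 followed in every group, at 213 ± 196, 15.3 ± 4.49, 162 ± 132 and 487 ± 832 RPKM in Control P14, CKO P14, Control P36 and CKO P36. The other 6 members were between 0.0799 RPKM (Bpifa1, CKO P14) and 59.9 RPKM (Bpifa1, CKO P36), and in CKO P36 all 6 had an SD close to or above their mean.

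The genotype comparison asks whether loss of Tbx4 went with another level of these genes at each age. At P14, none of the 10 members passed an adjusted p of 0.05 (edgeR quasi-likelihood test, Benjamini-Hochberg over all 15923 genes), beside 4.45% of all tested genes (3.33% higher and 1.11% lower in CKO). DESeq2 also called 0, giving no adjusted p for Bpifa1 and Ltf in any comparison. In edgeR, 0 members had an unadjusted p under 0.05, beside 2935 of the 15923 tested genes. All 10 fold changes were below 0, with a median log2 fold change of -2.0 against -0.01 over all tested genes, but CKO and Control libraries overlapped for all 10 members, where 24.1% of tested genes had groups that did not overlap. Scgb1a1 stood at -0.20 ± 0.24 on the log2 scale (SE, adjusted p = 0.715, 95% interval -0.72 to 0.33), and Cyp2f2 of -0.48 ± 0.34 (adjusted p = 0.487). Bpifb1 had -4.32 ± 2.43 (adjusted p = 0.398), Reg3g -3.91 ± 2.35 (adjusted p = 0.428), Scgb3a1 -3.79 ± 2.37 (adjusted p = 0.443) and Muc5b -2.90 ± 1.96 (adjusted p = 0.475). These large values came from Control replicates 2 and 3, while Control replicate 1 was below all 3 CKO libraries for 8 of 10 members, all except Scgb1a1 and Cyp2f2. For Bpifa1 that order rested on 1 count in Control replicate 1 beside 1 or 2 counts in each CKO library. For Ltf it rested on 3.13 CPM beside 3.26 CPM in CKO replicate 1. Whole-gene Tbx4 counts did not separate these groups either, as given above.

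At P36, again 0 of 10 members passed (edgeR, and 0 with DESeq2), beside 2.33% of all tested genes (1.49% higher and 0.842% lower in CKO). In edgeR, 0 members had an unadjusted p under 0.05, beside 2688 of the 15923 tested genes. Groups overlapped for all 10 members, against 22.6% of tested genes with no overlap. Fold changes were above 0 for 9 members, with a median of 1.14 on the log2 scale against 0.01 over all tested genes. Bpifa1 stood at 3.97 ± 2.12 on the log2 scale (SE, adjusted p = 0.382), Reg3g of 3.87 ± 2.13 (adjusted p = 0.396), Bpifb1 of 2.77 ± 2.07 (adjusted p = 0.545) and Ltf of 2.04 ± 1.22 (adjusted p = 0.433). Scgb1a1 was at -0.14 ± 0.24 (adjusted p = 0.826, 95% interval -0.67 to 0.39) and Cyp2f2 at 0.05 ± 0.34 (adjusted p = 0.962, interval -0.70 to 0.80).

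These P36 values rested on 1 library. When CKO P36 replicate 3 was left out, all 10 fold changes were below 0, with a median of -2.38, and 0 members passed. Ltf then had -1.72 ± 0.49 (adjusted p = 0.102, edgeR), Scgb3a1 -4.71 ± 2.22 (adjusted p = 0.31), Muc5b -3.03 ± 1.93 (adjusted p = 0.451) and Scgb1a1 -0.27 ± 0.27 (adjusted p = 0.614). Bpifa1 then held 1 count over the 2 CKO libraries left, too few for a fold change. For Scgb3a1, Bpifa1, Bpifb1, Muc5b, Reg3g and Ltf, most of the Control counts behind the contrast came from Control P36 replicates 1 and 3, which share a library number. For Scgb1a1, Control replicate 2 was at 24038 CPM and CKO replicates 1 and 2 were at 15722 and 31244 CPM. The same libraries measured 2160, 1476 and 2945 CPM for Cyp2f2. Control P36 replicate 2 was close to CKO replicate 2 for Scgb3a1 (5.57 and 6.67 CPM), Bpifb1 (0.850 and 0.893 CPM) and Ltf (3.91 and 3.68 CPM).

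The share of the summed CKO P36 level that came from replicate 3 ordered the members. It was 39.3% for Scgb1a1, 47.2% for Cyp2f2, 59.9% for Scgb3a2 and 65.7% for Pigr. Muc5b stood at 94.9%, Ltf at 95.1%, Scgb3a1 at 99.1%, Reg3g at 99.5%, Bpifb1 at 99.7% and Bpifa1 at 99.97%. Against the highest of the other 11 libraries, replicate 3 was 30.8-fold higher for Bpifa1, 8.59-fold for Ltf, 3.74-fold for Scgb3a1, 3.11-fold for Reg3g, 3.01-fold for Bpifb1, 2.59-fold for Muc5b, 2.36-fold for Pigr, 1.33-fold for Cyp2f2 and 1.0-fold for Scgb3a2. Scgb1a1 was 0.973 times its highest other library. The shares were lowest for Scgb1a1 and Cyp2f2, and above 90% for the mucin, both BPI fold genes, Scgb3a1, Reg3g and Ltf.

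**Figure D2:**
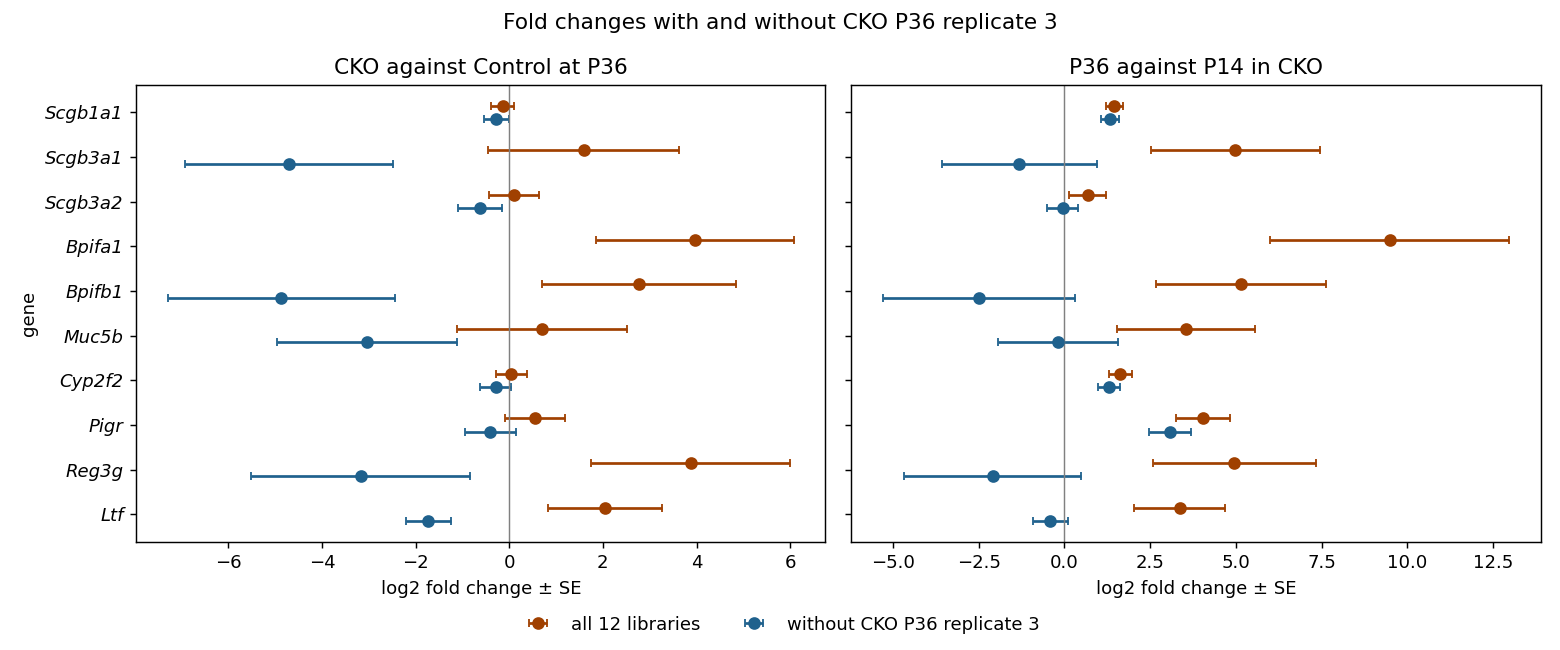
Log2 fold change with SE (edgeR) for each gene with all 12 libraries (brown) and without CKO P36 replicate 3 (blue), for CKO against Control at P36 (left) and for P36 against P14 in CKO (right); Bpifa1 is not drawn without that library because 1 count was left in its group. On the left no gene stays above 0 without the library, and on the right Scgb1a1, Cyp2f2 and Pigr stay above 0.

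The age comparison asks which members changed between P14 and P36. In Control, Scgb1a1, Cyp2f2 and Pigr rose and no member fell: 3 of 10 passed (edgeR, adjusted p under 0.05), beside 41.9% of all tested genes, where 21.0% were higher and 20.9% lower at P36. Scgb1a1 rose by 1.41 ± 0.25 on the log2 scale (SE, adjusted p = 0.00094), Cyp2f2 by 1.11 ± 0.34 (adjusted p = 0.0243) and Pigr by 2.39 ± 0.71 (adjusted p = 0.0229). The P36 libraries did not overlap the P14 libraries for these 3 members, beside 53.0% of tested genes with no overlap, and overlapped for the other 7. The median over the 10 members was 0.06, against 0.00 over all tested genes, with 5 above 0 and 5 below. Scgb3a2 was at -0.25 ± 0.53 (adjusted p = 0.729), Muc5b at -0.05 ± 1.81 (adjusted p = 0.985) and Reg3g at -2.83 ± 2.09 (adjusted p = 0.31).

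The Control calls for Cyp2f2 and Pigr were lost when the libraries of a shared number were summed (adjusted p = 0.0854 and 0.0773), while Scgb1a1 still passed. They were also lost without Control P14 replicate 1 (0.0741 and 0.0557), without Control P36 replicate 1 (0.075 and 0.0639) and without Control P36 replicate 3 (0.0747 and 0.0595), and Cyp2f2 alone without Control P14 replicate 3 (0.0825).

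In CKO the same 3 members rose: Scgb1a1 by 1.46 ± 0.25 on the log2 scale (SE, adjusted p = 0.00196, edgeR), Cyp2f2 by 1.64 ± 0.35 (adjusted p = 0.00734) and Pigr by 4.04 ± 0.78 (adjusted p = 0.00599). That was 3 of 10, beside 27.6% of all tested genes (14.3% higher and 13.2% lower). Groups did not overlap for these 3, beside 43.2% of tested genes, and overlapped for the other 7. With CKO P36 replicate 3 left out, the 3 members still passed, at 1.33 (adjusted p = 0.00611), 1.30 (adjusted p = 0.0215) and 3.08 (adjusted p = 0.00923). The median over the 10 members went from 3.79 with that library to -0.29 without it, and the number above 0 from 10 to 3. All 3 CKO P14 libraries had higher Xist and all 3 CKO P36 libraries higher Y-linked counts, so the term for sex rests on the Control P36 libraries. With that term, Cyp2f2 and Pigr did not pass in CKO (adjusted p = 0.0662 and 0.0562).

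DESeq2 called 6 members in CKO, beside 4753 genes in all. They were the 3 above with Scgb3a1 (log2 fold change 4.98, adjusted p = 0.0342), Bpifb1 (5.14, adjusted p = 0.0344) and Reg3g (4.96, adjusted p = 0.0488). In edgeR these 3 were at 4.99 ± 2.46 (adjusted p = 0.162), 5.15 ± 2.47 (adjusted p = 0.152) and 4.95 ± 2.38 (adjusted p = 0.152). Without CKO P36 replicate 1, edgeR called 5 members, adding Bpifa1 (10.06, adjusted p = 0.0431) and Ltf (3.91, adjusted p = 0.0357). Over the fits that each left out 1 library, 2490 to 4558 genes were called in all. With replicate 3 left out instead, the edgeR values were -1.31 for Scgb3a1, -2.49 for Bpifb1, -2.09 for Reg3g and -0.40 for Ltf.

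Whether the CKO effect changed from P14 to P36 was tested as an interaction, and 0 of 10 members passed (edgeR; 0 also with DESeq2), beside 1.61% of all tested genes (0.458% higher and 1.15% lower). At an unadjusted p under 0.05 (edgeR) there was 1 member, Reg3g, beside 3393 of the 15923 tested genes. Reg3g was at 7.78 ± 3.17 on the log2 scale (adjusted p = 0.207, edgeR). All 10 values were above 0, with a median of 2.98. Leaving out CKO P36 replicate 3 gave a median of -0.11, with 4 values above 0 and 6 below. The genotype comparisons and the age comparisons share libraries, and their values are given side by side for that reason.

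All 10 members varied more within groups than the median tested gene, and they differed widely among themselves. The biological coefficient of variation (the edgeR estimate of spread between libraries of a group) was 20.3% for Scgb1a1, 28.6% for Cyp2f2, 44.2% for Scgb3a2 and 55.6% for Pigr. It was 93.6% for Ltf, 134% for Muc5b, 156% for Scgb3a1, 161% for Bpifb1, 164% for Reg3g and 189% for Bpifa1, beside a median of 11.7% over all tested genes. Scgb1a1 stood at percentile 80.0 of that spread, Cyp2f2 at 90.2, and the other 8 at 96.8 or above.

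The mean of the members' log2 CPM, each centred on its 12 libraries, gave 1 value per library. It was -2.58, 1.75 and 1.21 in Control P14 replicates 1 to 3 and -1.45, -1.03 and -0.96 in CKO P14. At P36 it was 1.53, -1.04 and 1.54 in Control and -2.19, -0.66 and 3.89 in CKO. High and low libraries occurred in both genotypes and at both ages, and CKO P14 was the only group whose 3 libraries lay within 1 log2 unit. The pairs of a shared number lay close together: their members differed by at most 1.39-fold (Reg3g), apart from Bpifa1 at 1 and 2 counts in CKO P14. For Scgb3a2 in Control P36 the pair differed by 1.10-fold at 19388 and 18675 counts, more than counting error.

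Set against Scgb1a1 in the same library, Cyp2f2 was the steadiest member, a comparison made after the values were seen and given with no test. It gave 89.5 to 134 counts per 1000 Scgb1a1 counts over all 12 libraries. Scgb3a2 gave 35.7 to 93.7 at P14 and 17.4 to 40.9 at P36, and its P36 range without CKO P36 replicate 3 ended at 24.4. Muc5b gave 0.394, 62.8 and 67.1 in Control P14, 6.61, 7.06 and 6.97 in CKO P14, 21.7, 2.32 and 22.1 in Control P36 and 0.663, 3.33 and 70.7 in CKO P36. Relative to Scgb1a1, Muc5b was therefore at a like level in CKO P36 replicate 3 and in Control P14 replicates 2 and 3. Ltf was not: it gave 3.56 in CKO P36 replicate 3 and 0.118 to 0.528 in the other 11 libraries. Bpifa1 gave 6.52 in that library and 0 to 0.545 elsewhere.

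**Figure D3:**
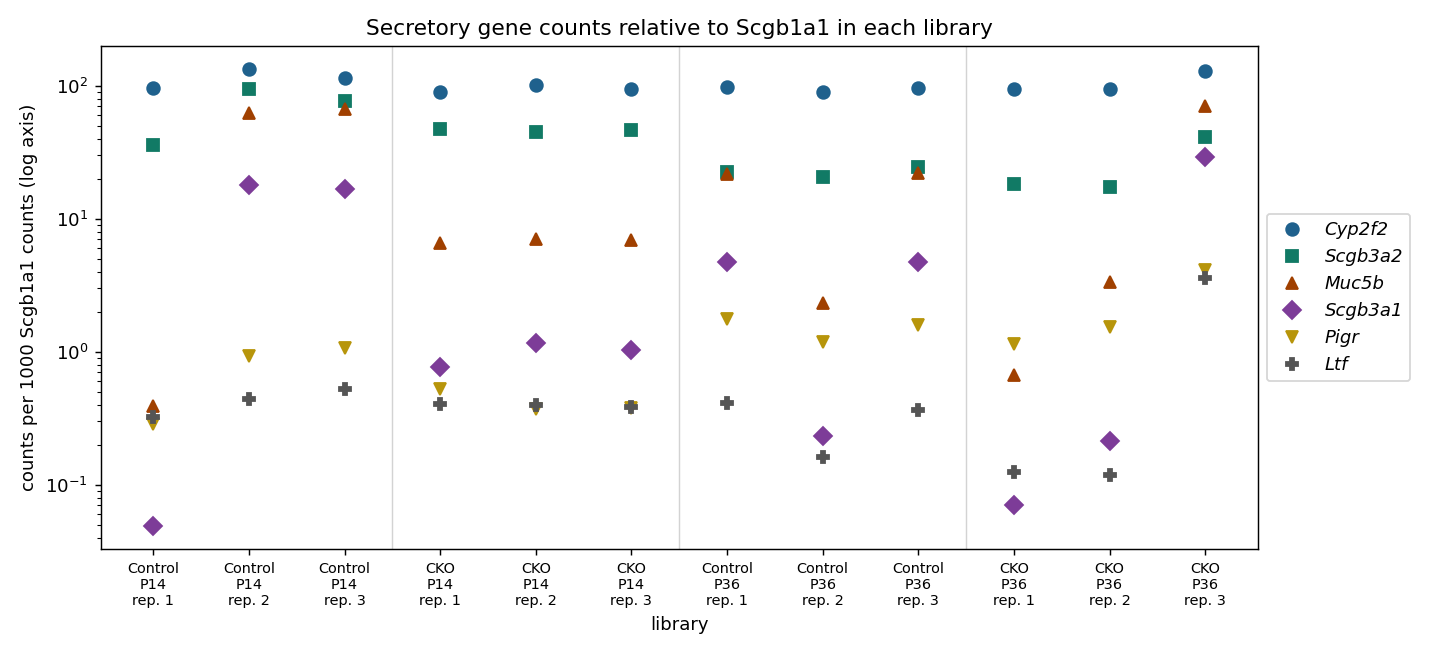
Counts of 6 genes per 1000 counts of Scgb1a1 in each of the 12 libraries, on a log axis. Cyp2f2 stays between 89.5 and 134, while Muc5b and Scgb3a1 are high in 5 libraries and Ltf is high in CKO P36 replicate 3.

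Other club cell genes, among them enzymes of xenobiotic metabolism, gave 0 of 16 calls by genotype at P14 and at P36. Of all tested genes, 4.45% were called by genotype at P14 and 2.33% at P36. With age, 9 of 16 rose and 1 fell in Control (median 0.97 on the log2 scale), and 12 rose and 2 fell in CKO (median 1.17). Over all tested genes 21.0% rose and 20.9% fell in Control, and 14.3% rose and 13.2% fell in CKO, with medians of 0.00 and 0.02. In Control, Cyp4b1 (1.18), Cyp2b10 (2.26), Gsta3 (1.64) and Cbr2 (1.38) rose with the smallest p. In CKO, Cyp4b1 (0.92), Cyp2b10 (1.98) and Gsta3 (1.56) rose and Fmo2, a flavin monooxygenase, fell by 1.20. Fmo2 was also the 1 gene of this list past the threshold for the interaction (-1.27 ± 0.25, adjusted p = 0.0422, edgeR). Cyp2a5 measured 181 CPM in CKO P36 replicate 3 and at most 25.1 CPM elsewhere, which was looked at after its values were seen.

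Of 14 goblet and mucin genes, 13 were in the file and 9 were tested. None passed by genotype at either age, beside 4.45% (P14) and 2.33% (P36) of all tested genes. Muc1, a membrane mucin, rose with age in Control (1.01 ± 0.12, adjusted p = 6.88e-05, edgeR) and in CKO (0.58 ± 0.12, adjusted p = 0.00483), and Muc20 rose in CKO (1.80 ± 0.43, adjusted p = 0.0125). Tff1 and Tff3 were at 0 in all 12 libraries. Over the 9 tested genes the centred mean was 2.28 in CKO P36 replicate 3, 1.08 and 1.17 in Control P14 replicates 2 and 3, 0.50 and 0.64 in Control P36 replicates 1 and 3, and below 0 in the other 7 libraries. The same 5 libraries were thus above 0 for this list and for the members.

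Of 10 other secretoglobin genes, 9 were in the file, and 8 of those were at 0 in all libraries. Scgb1c1 was tested and rose with age in both genotypes (1 of 1). Its log2 fold change was 1.53 in Control (adjusted p = 0.000264, edgeR) and 0.67 in CKO (adjusted p = 0.0414). Of all tested genes, 21.0% rose in Control and 14.3% in CKO. Of 15 other BPI fold genes, 4 were tested. With age, 2 of these rose in Control and 1 in CKO, beside the same 21.0% and 14.3%. Bpifa2 rose with age in Control (2.19 ± 0.62, adjusted p = 0.0133, edgeR) and in CKO (2.34 ± 0.62, adjusted p = 0.0162) at levels of 0.0474 to 1.15 CPM, and Pltp, the phospholipid transfer protein, rose in Control (0.48 ± 0.12, adjusted p = 0.0064). The pattern of Bpifa1 and Bpifb1 across libraries was not shared by Bpifa2, which measured 1.05 CPM in CKO P36 replicate 3 and 1.02 CPM in CKO P36 replicate 1.

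Among 15 airway gland and serous genes, 14 were in the file and 8 were tested. None was called by genotype, beside 4.45% (P14) and 2.33% (P36) of all tested genes. With age, 5 of 8 rose and 1 fell in Control, and 4 of 8 rose in CKO, where 41.9% and 27.6% of all tested genes were called. Slpi, a secreted protease inhibitor, rose by 3.90 in Control and 2.23 in CKO, and Aqp5, a water channel, by 0.74 and 0.64. Sox10 fell by 3.49 ± 0.85 in Control (adjusted p = 0.00651, edgeR), at low levels of 0.085 to 2.31 CPM. Of 22 mucosal defence genes, 10 were tested. Nos2, the inducible nitric oxide synthase, was the 1 of these 10 called by genotype at P14 (-0.70 ± 0.17, adjusted p = 0.0447, edgeR). None passed at P36, and the shares of all tested genes were the same 4.45% and 2.33%. With age, 4 of these 10 rose and 2 fell in Control and 3 rose in CKO, beside the same 41.9% and 27.6%. Nos2 (-0.89) and Nfkbiz (-0.58) fell in Control. Lcn2, an iron-sequestering antibacterial protein, rose with age in Control (1.48) and in CKO (0.70), and Il17ra rose in both (0.69 and 0.73). Il17a, Il22, Reg3a and Reg3b were the 4 of the 22 at 0 in all libraries, also in CKO P36 replicate 3 with its 109 CPM of Reg3g. Il17f held 8 counts in all, with 7 libraries at 0.

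Transcription factors and Notch genes of the airway epithelium gave 1 call by genotype among 20 tested: Notch3 was higher in CKO at P36 (0.62 ± 0.14, adjusted p = 0.0399, edgeR). None passed at P14, and 2.33% of all tested genes were called at P36 and 4.45% at P14. With age, 4 of 20 rose and 3 fell in Control, beside 41.9% of all tested genes called. In CKO 8 of 20 rose and 1 fell, beside 27.6% called. Notch3 (-0.82) and Jag2, a Notch ligand (-0.86), fell in Control. Foxa2, a forkhead factor of the airway epithelium, rose by 0.72 in Control and 0.60 in CKO, and Ehf, an epithelial ETS factor, by 0.89 and 0.86.

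Markers of other tissues moved with the members, adipose and skeletal muscle markers across all 12 libraries and cardiac markers in some. Adipose markers, 13 of 14 tested, summed to 1258 CPM over all 14 in CKO P36 replicate 3. In the other 11 libraries they summed to 39.3 to 199.7 CPM. Adipoq measured 60.6 CPM and Car3 533 CPM in CKO P36 replicate 3. The 10 cardiac muscle markers, 9 of them tested, summed to 1416 CPM in CKO P36 replicate 3 and 1992 CPM in Control P14 replicate 2. They summed to 169 to 254 CPM in Control P36 and the other 2 CKO P36 libraries. Myh6 measured 517 CPM in CKO P36 replicate 3. All 16 ciliated cell markers were tested, and they summed to 1085 CPM in CKO P36 replicate 3 and 320 to 804 CPM elsewhere. The 10 smooth muscle markers summed to 778, 859 and 1348 CPM in CKO P36 replicates 1 to 3 and 548 to 616 CPM in Control P36. At P14 they summed to 969 to 1329 CPM in Control and 838 to 1192 CPM in CKO. The 15 cartilage markers, 5 of them tested, summed to 5.70 to 23.2 CPM over all libraries. Col2a1, the cartilage collagen, measured at most 0.526 CPM. At P36 the cartilage sum was 5.70, 6.78 and 10.6 CPM in CKO replicates 1 to 3 and 7.06 to 7.85 CPM in Control. Alveolar type 2 markers, all 14 tested, summed to 9266 to 26803 CPM over the 12 libraries. At P36 they summed to 23092, 18879 and 17766 CPM in CKO replicates 1 to 3 and to 21937 to 26803 CPM in Control, so replicate 3 was the lowest. The part of these tissues in the members' levels was not tested.

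The adipose list split the 12 libraries as the members did: its centred mean was above 0 in the same 5 libraries and below 0 in the other 7. Its sum was 131 to 1258 CPM in those 5 libraries and 39.3 to 91.3 CPM in the other 7. The 5 tested skeletal muscle markers made the same split, with centred means of 0.56 and 0.60 in Control P14 replicates 2 and 3. Their means were 0.31 and 0.42 in Control P36 replicates 1 and 3, 1.12 in CKO P36 replicate 3 and below 0 in the other 7. The cardiac list departed from the members in Control P36 replicates 1 and 3, where the member mean was 1.53 and 1.54, the cardiac list was at -0.76 in both, and the adipose list at 1.0 and 0.91. In Control P14 replicates 2 and 3, with member means of 1.75 and 1.21, the cardiac list was at 2.16 and 1.57 and the adipose list at 0.95 and 0.17. Ciliated markers gave 0 of 16 calls by genotype at either age, beside 4.45% (P14) and 2.33% (P36) of all tested genes. With age, 2 of 16 rose in Control, Tppp3 (0.50) and Dynlrb2 (0.74), beside 21.0% of all tested genes that were higher. In CKO 11 of 16 rose, beside 14.3% that were higher, led by Tppp3 (0.68), Dynlrb2 (1.38), Ccdc153 (1.87) and Pifo (1.31). The basal cell markers, 7 of 10 tested, had 1 call by genotype at P14 (Igfbp3, 1.52, adjusted p = 0.0143, edgeR) and none at P36, beside the same 4.45% and 2.33%. Their centred mean was 1.26 in CKO P36 replicate 3 and at most 0.48 elsewhere. The summed level of all 10 markers there was 115 CPM, inside the 94.8 to 267 CPM of all libraries. Most of that sum was Igfbp3 (74.3 CPM) and Snai2 (19.5 CPM). Krt15 (7.53 CPM), Trp63 (4.94 CPM), Aqp3 (4.06 CPM), Krt5 (2.47 CPM), Ngfr (1.55 CPM) and Krt17 (0.251 CPM) were highest in CKO P36 replicate 3. Krt14, Dlk2, Igfbp3 and Snai2 were not.

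**Figure D4:**
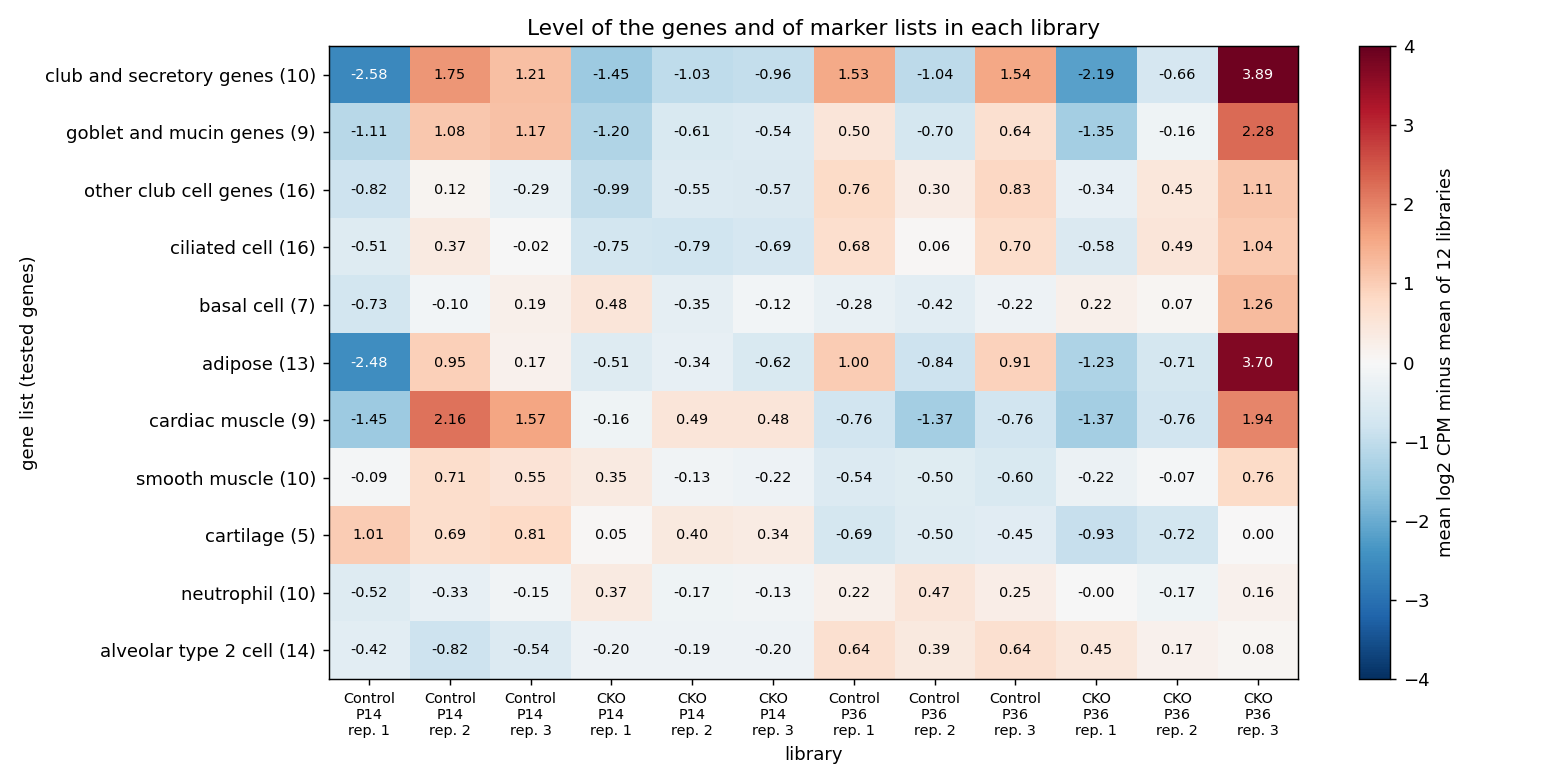
Mean log2 CPM of the tested genes of each list, centred on the 12 libraries, for the 10 genes and 10 marker or pathway lists; columns are libraries and colour runs from low (blue) to high (red). CKO P36 replicate 3 stands at 3.89 for the club and secretory genes, 3.70 for adipose and 0.16 for neutrophil markers.

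Genes most like the member mean across the 12 libraries, by Pearson's r of log2 CPM, were Sult1d1, a sulfotransferase (r = 0.974), Mst1 (0.969), Mdh1 (0.966), Rptn (0.96), 9230110C19Rik (0.96), Tmc5 (0.956), Wdr72 (0.956), Otx1 (0.955), Nek2 (0.955) and Aldh3a1 (0.954). Over the 11 libraries without CKO P36 replicate 3 the first 4 were Muc5ac (0.979), Sult1d1 (0.959), Mlf1 (0.953) and Mst1 (0.949), and 5 of 10 names stood in both lists. These are descriptions across libraries that differ in depth, in age and in the levels of other tissues' markers. Sult1d1 measured 69.6 CPM in CKO P36 replicate 3 and 0.463 CPM in CKO P36 replicate 1.

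Single members had different nearest genes. Scgb1a1 was most like Cbr2, a carbonyl reductase of club cells (r = 0.99), and Cyp2f2 most like Por, the electron donor of cytochrome P450 enzymes (0.991), over 12 libraries. Scgb3a1 and Muc5b were each other's nearest gene (0.988), and Bpifb1 was nearest to Otx1 (0.989). Bpifa1 was nearest to Dmrt3 (0.971), Scgb3a2 to Fsd2 (0.971), Pigr to Map7 (0.982) and Ltf to Dgat2 (0.956). Reg3g was nearest to 2 genes of heart and muscle, Pln (0.976) and Cox6a2 (0.972). Over the 11 libraries Pln remained nearest to Reg3g (0.964), Por to Cyp2f2 (0.989) and Muc5b to Scgb3a1 (0.986), while Sfxn1 was nearest to Scgb1a1 (0.99).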

How the data were processed

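RNA-seq of 12 whole-lung libraries (4 groups of 3) was analysed. The labels' protocols state miRNeasy extraction and KAPA RNA HyperPrep libraries, and the submitters' processing notes name FastQC, STAR, featureCounts, edgeR and mm10. The deposited counts are raw whole-number counts per gene for all 24421 genes, made by the authors. The deposited log2 CPM values of 15458 genes were matched to within 5e-09 by edgeR with a prior count of 2, and were used for that check only. Exon lengths came from the deposited table.

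CPM used TMM-scaled library totals (edgeR 4.0.16 in R 4.3.3). Genes were filtered with filterByExpr (minimum count 10, minimum total 15) and tested with edgeR's quasi-likelihood test in 1 fit of all 12 libraries (8 residual degrees of freedom, Benjamini-Hochberg over 15923 genes, threshold 0.05). The script was tested on simulated data. Counting intervals are exact binomial at 95%. Alternatives were leaving out the filter, requiring 1 CPM in 3 libraries, RLE scaling, library totals alone, DESeq2 1.42.0, summing libraries of a shared number, a sex term, a replicate block, only the groups compared, and leaving out each library.

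The members and the lists of marker and pathway genes were chosen with earlier results of these data known. In each list, named genes are up to 4 past the threshold with the smallest p in a comparison, otherwise the 2 with the highest mean CPM; other names are said to have been chosen after their values were seen or check the presence of a tissue. Likeness is Pearson's r of log2 CPM, with the 10 nearest genes to the member mean and the 3 nearest to each member. Symbols that differ from the list's were matched through RefSeq synonyms. Names of 7 list genes were not found and are not analysed here.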

Additional observations from a re-analysis of the deposited data

How the results depend on the processing

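Of the 50 member fold changes (10 members in 5 comparisons), all 50 kept direction and side of the threshold without the filter, with at least 1 CPM in 3 libraries, and under RLE scaling and library totals alone. DESeq2 moved the members called for age in CKO to 6, and all genes called to 1105 and 853 (genotype, P14 and P36) and 1055 (difference of genotype effects). Summing libraries of a shared number gave 1 member called for age in Control, all-gene counts of 128, 42, 2152 and 0 for genotype at P14 and P36, age in CKO and the difference, and -0.094 for Bpifa1 with age in Control. The term for sex gave 1 member called for age in CKO, all-gene counts of 38 (genotype at P36), 2056 (age in CKO) and 0 (difference), and log2 fold changes of 0.10 for Scgb1a1 (genotype, P36) and of 0.16 for Scgb3a1 and 0.47 for Muc5b (age in Control). Fitting only the groups compared gave 208 genes for genotype at P36, and no filter gave 155 for the difference. The cause was not tested.

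Replicate numbers did not pair the libraries: of 18 same-number pairs 7 had a correlation of deviations over 0.1 (range -0.28 to 0.59), and 7 of 12 libraries were closest to their own number. The replicate block changed no member's call. It gave -0.34 for Scgb3a1, -0.10 for Scgb3a2, -0.77 for Muc5b and -0.051 for Cyp2f2 (genotype, P36), and 0.18 for Scgb3a1 and 0.47 for Muc5b (age in Control).

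Leaving out each library gave 0 members called for genotype at either age and for the difference, 1 to 3 for age in Control and 3 to 5 for age in CKO. All-gene counts ran from 231 to 817 (genotype, P14), 82 to 612 (genotype, P36), 2490 to 4558 (age in CKO), 5016 to 6993 (age in Control) and 0 to 732 (difference). Of the 38 reversals, 22 came without CKO P36 replicate 3. For genotype at P36 the log2 ranges were -0.31 to 0.11 for Scgb1a1, -4.71 to 2.15 for Scgb3a1, -0.63 to 0.46 for Scgb3a2, -7.11 to 4.53 for Bpifa1, -4.87 to 3.33 for Bpifb1, -3.03 to 1.25 for Muc5b, -0.29 to 0.34 for Cyp2f2, -0.41 to 0.99 for Pigr, -3.17 to 4.47 for Reg3g and -1.72 to 2.58 for Ltf. For age in Control they were -0.97 to 0.37 for Scgb3a1, -0.60 to 0.28 for Scgb3a2, -0.40 to 0.77 for Bpifa1 and -0.63 to 0.58 for Muc5b. For age in CKO they were -1.31 to 5.55 for Scgb3a1, -0.051 to 1.04 for Scgb3a2, -1.60 to 10.06 for Bpifa1, -2.49 to 5.71 for Bpifb1, -0.18 to 4.11 for Muc5b, -2.09 to 5.51 for Reg3g and -0.40 to 3.91 for Ltf. For the difference they were -0.13 to 0.30 for Scgb1a1, -0.93 to 5.94 for Scgb3a1, -1.77 to 9.88 for Bpifa1, -0.56 to 7.65 for Bpifb1, -0.13 to 4.16 for Muc5b and -1.41 to 2.90 for Ltf. The lower Bpifa1 values rest on 1 count in CKO P36.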
